A study of Rattus norvegicus with 17 samples.

Results

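The genes described here form 2 connected groups of the oxygen response: the regulators and targets of the hypoxia-inducible factors (HIFs), and the enzymes and transporters of glycolysis. A list of 34 genes was taken, and a gene was read from the probes whose sequence name maps to it. Of the 15154 genes with a named probe on the array, 33 were on the list, and the other listed gene, Egln1, had no named probe and was not analysed here. All 33 measured genes lay well above background on all 17 arrays, so none entered or left through the filter on dim probes.

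Cells hold HIF proteins low when oxygen is plentiful, because prolyl hydroxylases of the Egln family mark the alpha subunits (Hif1a, Epas1) for destruction by the von Hippel-Lindau protein. When oxygen is short the alpha subunits persist, enter the nucleus and raise genes for glucose uptake, glycolysis, lactate export, pH control and vessel growth. Since this control acts on the proteins, transcript levels of Hif1a or Epas1 need not follow HIF activity, and the targets are the usual transcript readout. The epidermis has no vessels of its own and draws heavily on glycolysis, and skeletal muscle, which can lie at the base of a skin sample, carries its own glycolytic isoenzymes.

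The exposed group was male CD hairless rats given 94 GHz millimetre waves in sessions of 3 h, on 3 days of each week, over 5.5 months, and the sham group was the same kind of rats sham exposed. All were 2 to 3 months old at the outset. Skin explants were profiled on 1-colour Agilent rat arrays, with 9 exposed arrays and 8 sham arrays. By the design text the arrays came from 6 exposed and 8 sham rats, and no label says which rat an array belongs to. Exposed arrays can therefore share a rat, and p-values over arrays are then too small. The p-values measure only the spread between these arrays, which may be partly technical.

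The 75th percentile of the signal, the scale used for each array, ran from 1077 to 1703, and the precision is limited by the number of arrays. Of the skin markers with a named probe, 6 of 6 for basal keratinocytes and 9 of 9 for endothelium were above background. The explants were far from uniform in other tissue. A score over 11 skeletal muscle markers (mean log2 value after centring each gene) ran from -3.12 to 5.49 in exposed skin and from -3.12 to 4.82 in sham skin. A score over 13 hair follicle markers ran from -3.74 to 2.47 in exposed skin and from -6.76 to 2.64 in sham skin, with sham replicate 5 lowest. The exposed minus sham difference was 1.53 for the muscle score and 0.79 for the follicle score, and neither passed a two-sided exact permutation test (p = 0.319 and p = 0.538). The 3 arrays of highest muscle score were exposed replicates 4 and 8 and sham replicate 3.

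HIFs bind DNA at a short core, which is ACGTG at most sites and GCGTG at some. RefSeq promoter sequences (build GRCr8) were matched for 31 of the 34 genes, with 37 gene starts among them, and the 250 bases before each start were searched on both strands. Because CACGTG reads the same on both strands, it counts as overlapping matches to ACGTG. The core ACGTG was present before 13 of the 37 starts (35.1%), against 16.6% of the 33469 starts in the table, and GCGTG before 16 of 37 (43.2%), against 25.9%. Either was present before 22 of 37 (59.5%), against 36.7%. A match is a description of letters and not evidence of binding. The starts were not matched for base composition, a gene with several starts counts once for each, and the shares were not tested. The following upstream sequences belong to the genes on which the results below turn: Ldha, which varied together with another glycolytic gene; Adm, which had the smallest p for exposure; and Pfkm, which varied most between explants. They lie at chr1:106507842-106508091 (plus strand), chr1:174179950-174180199 (plus strand) and chr7:131113849-131114098 (plus strand). Capitals mark either core on either strand.
Ldha: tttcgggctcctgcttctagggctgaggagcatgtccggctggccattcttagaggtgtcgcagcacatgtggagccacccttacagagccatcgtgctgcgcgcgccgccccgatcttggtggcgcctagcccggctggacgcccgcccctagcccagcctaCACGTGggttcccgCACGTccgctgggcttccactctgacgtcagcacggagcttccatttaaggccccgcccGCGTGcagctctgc
Adm: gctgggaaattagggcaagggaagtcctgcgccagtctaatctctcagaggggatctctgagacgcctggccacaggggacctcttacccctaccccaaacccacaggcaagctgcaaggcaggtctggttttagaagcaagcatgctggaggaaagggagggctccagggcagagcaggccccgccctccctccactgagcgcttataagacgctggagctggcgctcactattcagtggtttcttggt
Pfkm: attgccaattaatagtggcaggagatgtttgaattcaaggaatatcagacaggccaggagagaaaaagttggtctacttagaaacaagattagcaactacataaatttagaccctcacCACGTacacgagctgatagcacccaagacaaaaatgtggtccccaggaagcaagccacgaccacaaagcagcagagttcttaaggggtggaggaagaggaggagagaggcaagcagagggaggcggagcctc
Ldha held 4 matches, all within the last 100 bases. Pfkm held 1 match and Adm none in this window.

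The first comparison asked whether chronic exposure was followed by a hypoxic or glycolytic transcript pattern in skin. No gene of the list passed the test, and the estimates were small. Of the 33 genes, 22 averaged higher and 11 lower in exposed skin, and 0 were called (limma over 20710 probes, Benjamini-Hochberg threshold 0.05), the smallest adjusted p being 0.983. Over all probes 0.0% were called, and 943, or 4.55%, had an unadjusted p under 0.05, as did 1 of the 33 genes. The median exposed minus sham difference was 0.037 log2 units over the 33 genes and -0.025 over all probes, of which 38.7% averaged higher in exposed skin. When arrays were scaled on their median, 24 of the 33 genes and 46.4% of all probes averaged higher, and the 2 genes that turned to positive differences were Slc2a1 and Pdk1.

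The 95% intervals give what these arrays could still hold. For 31 of the 33 genes (93.9%) the interval of the difference lay inside 1.5-fold in either direction, against 87.4% of all probes. For 24 of them (72.7%) it lay inside 1.25-fold, against 59.6% of all probes. The 2 genes with wider intervals were Slc2a3 and Pfkm. The groups overlapped for all 33 genes, and over all probes 0.00483% did not overlap. In bulk skin, fewer cells of a type and less RNA per cell cannot be told apart.

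**Figure D1:**
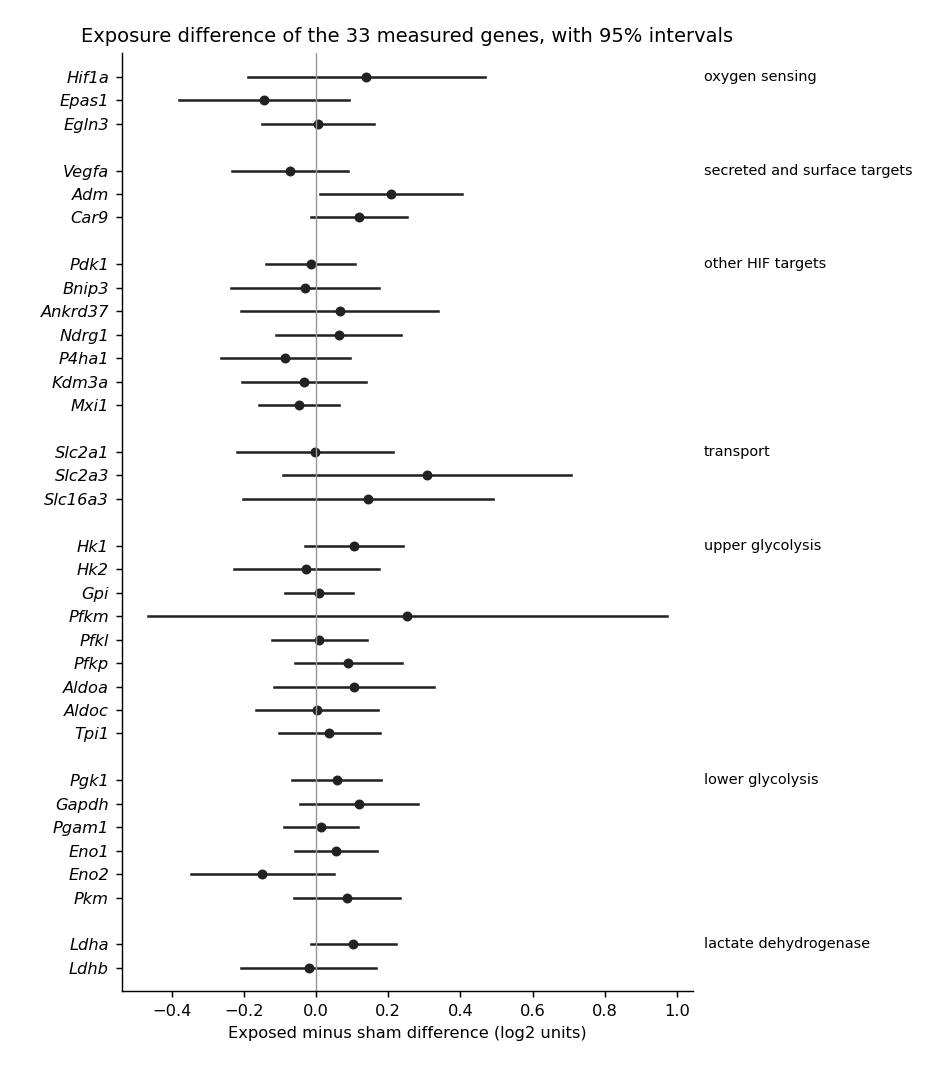
Exposed minus sham difference of each measured gene (horizontal axis, log2 units; point, estimate; line, 95% interval from limma; 9 exposed and 8 sham arrays), grouped by role. Adm was the gene whose interval, from 0.01 to 0.40, did not hold 0 before adjustment, and Pfkm and Slc2a3 had the widest intervals.

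Among the regulators, Hif1a, the oxygen-labile subunit found in most cells, ranged from -4.64 to -3.37 with a median of -4.08 in exposed skin, and from -4.85 to -3.87 with a median of -4.12 in sham skin (log2 signal minus the array's 75th percentile). Its difference of 0.14 (95% interval -0.19 to 0.47; adjusted p = 0.983) was 0.0048 under normexp, another background correction, 0.044 without sham replicate 6 and 0.055 without exposed replicate 1. Epas1, the alpha subunit that is prominent in endothelium, ranged from -1.47 to -0.85 with a median of -1.29 in exposed skin, and from -1.24 to -0.61 with a median of -1.08 in sham skin. The Epas1 difference was -0.14 (-0.38 to 0.09). Egln3, a prolyl hydroxylase that is itself a HIF target, ranged from 1.30 to 1.77 with a median of 1.56 in exposed skin, and from 1.33 to 1.74 with a median of 1.55 in sham skin. Its difference was 0.0054 (-0.15 to 0.16). The groups overlapped for all 3 regulators, while for Epas1 5 of 9 exposed arrays lay below the lowest sham array and 2 of 8 sham arrays above the highest exposed array.

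Adm encodes adrenomedullin, a vessel-widening peptide secreted under low oxygen. Its signal ranged from -0.54 to 0.07 with a median of -0.34 in exposed skin, and from -0.90 to -0.25 with a median of -0.46 in sham skin. The highest value was exposed replicate 1 and the lowest sham replicate 6, and between them the groups overlapped. Adm averaged 0.21 higher in exposed skin (0.01 to 0.40; adjusted p = 0.983 in limma), and it was the 1 gene of the list with an unadjusted p under 0.05. The sham mean was exceeded on 8 of 9 exposed arrays. The difference was positive on all 4 slides, with 0.34 on slide 1 and 0.0078 on slide 2, and was 0.15 with the muscle and hair follicle scores in the fit. Slide 3 held only 1 exposed and 1 sham array, and slide 4 held 1 exposed and 3 sham arrays, so the sign on these slides rests on single exposed arrays.

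Car9, a membrane carbonic anhydrase that buffers acid outside the cell and is among the most HIF-specific targets, ranged from -4.23 to -3.77 with a median of -3.98 in exposed skin, and from -4.27 to -4.06 with a median of -4.15 in sham skin. Its values spread more in exposed skin (SD 0.16, n = 9) than in sham skin (SD 0.065, n = 8). The Car9 difference was 0.12 (-0.015 to 0.25; adjusted p = 0.983), and under normexp it was 0.020. Vegfa, the main growth factor of blood vessels, went the other way at -0.072 (-0.23 to 0.089), and the sham mean was exceeded on 2 of 9 exposed arrays. Its 3 further probes also gave negative differences, from -0.20 to -0.044, and none passed the test.

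The other 7 HIF targets differed little. Pdk1, the kinase that turns off pyruvate dehydrogenase, differed by -0.015, Bnip3, a mitochondrial receptor for mitophagy, by -0.032, and Kdm3a, a histone demethylase, by -0.033. P4ha1, a subunit of the collagen prolyl hydroxylase, gave -0.085, and Mxi1, an antagonist of Myc, gave -0.047. Ankrd37 (0.065) and Ndrg1 (0.063), both induced by low oxygen in many cell lines, were the 2 with positive differences. For 6 of these 7 genes the interval lay inside 1.25-fold; the exception was Ankrd37 (-0.21 to 0.34).

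Of the transporters, Slc2a1, the glucose carrier GLUT1 of epidermis, differed by -0.0023 (-0.22 to 0.22). Slc2a3, the high-affinity carrier GLUT3, ranged from -4.44 to -3.08 with a median of -3.98 in exposed skin, and from -4.58 to -3.55 with a median of -4.20 in sham skin. The groups overlapped over most of their range, and exposed replicate 8 was highest. The Slc2a3 estimate of 0.31 (-0.09 to 0.71; adjusted p = 0.983) was the largest of the 33, was 0.13 under normexp, and was negative on slide 4 at -0.30. Slc16a3, the lactate exporter MCT4, differed by 0.14 (-0.20 to 0.49).

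**Figure D2:**
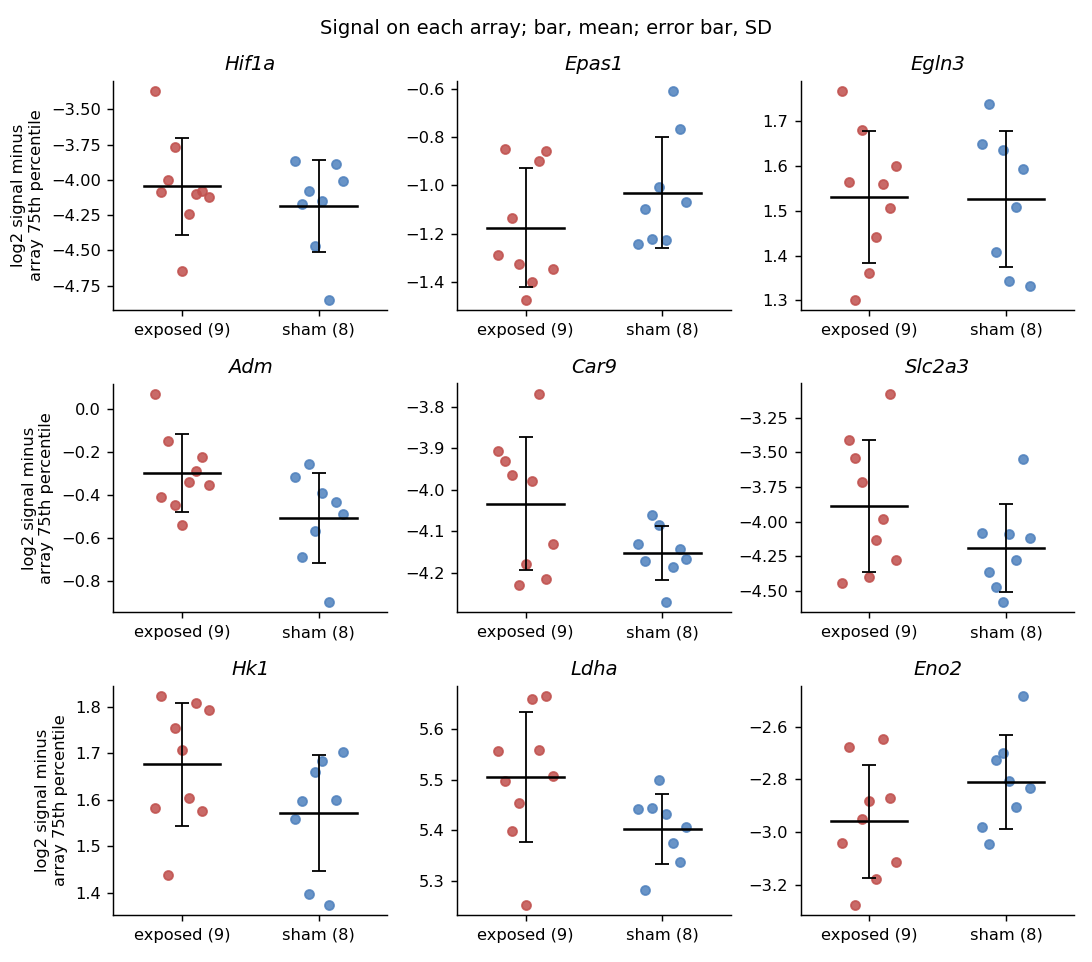
Signal on each array (vertical axis, log2 signal minus the array's 75th percentile; point, 1 array; bar, group mean; error bar, SD) for the regulators with a probe and the 6 genes with the smallest p for exposure, exposed skin (n = 9) left of sham skin (n = 8). The groups overlap in every panel, and Car9 and Ldha spread more in exposed skin.

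Glycolysis begins with hexokinase, which traps glucose as its phosphate. Hk1, the housekeeping form, ranged from 1.44 to 1.82 with a median of 1.71 in exposed skin, and from 1.37 to 1.70 with a median of 1.60 in sham skin. Hk1 differed by 0.10 (-0.032 to 0.24; adjusted p = 0.983) and Hk2, the inducible form, by -0.027 (-0.23 to 0.17). Of the 9 genes of the upper pathway, 8 averaged higher in exposed skin and 0 passed the test. Gpi, which turns glucose phosphate into fructose phosphate, differed by 0.0077 and Tpi1, which interconverts the triose phosphates, by 0.037. The 3 phosphofructokinase genes, for the rate-setting step, gave 0.25 (Pfkm, muscle form, -0.47 to 0.97), 0.0090 (Pfkl, liver form) and 0.089 (Pfkp, platelet form). The Pfkm difference was 0.048 without exposed replicate 4, 0.069 without exposed replicate 8 and 0.44 without sham replicate 3. The aldolases, which split the sugar, gave 0.10 (Aldoa) and 0.0021 (Aldoc).

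In the lower pathway 5 of 6 genes averaged higher in exposed skin and 0 passed the test. Gapdh, which makes the first NADH, differed by 0.12 (-0.044 to 0.28), Pgk1, the first ATP-forming enzyme, by 0.057 (-0.066 to 0.18), and Pgam1, a mutase, by 0.014 (-0.090 to 0.12). Eno1, the common enolase, differed by 0.055 (-0.059 to 0.17), and Pkm, pyruvate kinase of muscle and proliferating cells, by 0.085 (-0.062 to 0.23). Eno2, the enolase of neurons that HIF also induces, ranged from -3.27 to -2.65 with a median of -2.95 in exposed skin, and from -3.05 to -2.49 with a median of -2.82 in sham skin. The Eno2 estimate of -0.15 (-0.35 to 0.050) was the most negative of the 33, and the sham mean was exceeded on 2 of 9 exposed arrays.

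Ldha encodes the lactate dehydrogenase subunit that favours making lactate, and Ldhb the subunit that favours using it. Ldha ranged from 5.25 to 5.67 with a median of 5.51 in exposed skin, and from 5.28 to 5.50 with a median of 5.42 in sham skin. Exposed replicate 5 was the lowest of all 17 arrays, and exposed replicates 6 and 8 were the highest. Ldha differed by 0.10 (-0.013 to 0.22; adjusted p = 0.983 in limma) and was positive on all 4 slides, from 0.010 on slide 2 to 0.23 on slide 3. The slide 3 value sets exposed replicate 8 against sham replicate 5 alone. Adm, Hif1a, Car9, Pfkp, Eno1 and Pkm were also positive on all 4 slides. On slides 3 and 4 the sign of each of these genes rests on the same single exposed array. The share of all probes positive on every slide is not given here. Ldhb differed by -0.021 (-0.21 to 0.17).

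A log ratio of 2 genes within an array is free of any constant added to that array, though not of quantile scaling, and 7 isoform ratios were compared with two-sided exact permutation tests over all splits of the arrays. None passed after adjustment over the 7, and the adjusted p was 0.407 or above. The Eno1 over Eno2 log2 ratio averaged 6.87 with an SD of 0.26 in exposed skin (n = 9) and 6.67 with an SD of 0.19 in sham skin (n = 8), a difference of 0.20 with exact permutation p = 0.0908. The Ldha over Ldhb ratio averaged 2.97 with an SD of 0.18 in exposed skin (n = 9) and 2.84 with an SD of 0.24 in sham skin (n = 8; exact permutation p = 0.237). The Slc2a1 over Slc2a3 ratio differed by -0.31 (exact permutation p = 0.168), by -0.14 under normexp and by -0.20 without exposed replicate 8. These ratios compare probe signals, whose brightness depends on the probe, so only their difference between groups carries meaning and not which isoform is more abundant.

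The next question was how the genes varied between explants whatever the exposure. Over all 17 arrays the median SD of the 33 genes was 0.16 log2 units, against 0.18 over the 11167 named genes, and 20 of the 33 lay below that median. The steadiest was Gpi, with an SD of 0.075, where 4.42% of named genes had a smaller SD. Pgam1 had an SD of 0.086 and Mxi1 of 0.098. At the other end, Pfkm had an SD of 0.73, above that of 96.5% of named genes, and was the only one of the 33 in the top 10%. Slc2a3 (0.43), Slc16a3 (0.35) and Hif1a (0.33) followed.

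Pfkm was also the gene called on the muscle markers. It ranged from -0.79 to 1.38 with a median of -0.70 in exposed skin, and from -0.86 to 0.78 with a median of -0.72 in sham skin. Its 3 high values, 1.38 and 1.22 in exposed replicates 4 and 8 and 0.78 in sham replicate 3, came from the 3 arrays of highest muscle score, and the other 14 arrays lay between -0.86 and -0.35. In limma with group in the fit, Pfkm rose by 0.21 log2 units per unit of muscle score (0.14 to 0.27; adjusted p = 0.000792). It was the only 1 of the 33 genes called, where 0.903% of all probes were called, 0.888% with a positive and 0.0145% with a negative slope. An unadjusted p under 0.05 was reached by 3 of the 33 genes, where 7.24% of all probes did so. With slide as a block the slope was 0.20 and the call was lost (adjusted p = 0.0633), and without the 3 arrays it was 0.060 (adjusted p = 0.214), a setting chosen after the values were seen. Because Pfkm formed these separate sets of arrays, no pooled correlation is given. Over the other 14 arrays, r with the muscle score was 0.807 (permutation p = 0.00049) and rho was 0.697 (permutation p = 0.00761), both unadjusted. With both marker scores in the fit, the exposure difference of Pfkm was -0.058.

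Aldoa, the aldolase of muscle and most other tissues, and Gapdh had the next smallest p. Aldoa was at 4.21 and 4.24 in exposed replicates 4 and 8 and 4.14 in sham replicate 3, its 3 highest arrays, with a slope of 0.053 (0.025 to 0.081; adjusted p = 0.0996 in limma, not called). The Gapdh slope was 0.033 (0.0096 to 0.056; adjusted p = 0.348). Both slopes were negative within slide 1, at -0.037 for Aldoa and -0.046 for Gapdh, and were 0.0098 and 0.0066 without the 3 arrays. The other 30 genes had slopes between -0.020 and 0.059, Hk2, Ldha, Ldhb, Eno1 and Slc2a1 among them. Slc2a3 (0.059) and Slc16a3 (0.052) were at the upper end of that range with unadjusted p of 0.067 and 0.062.

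**Figure D3:**
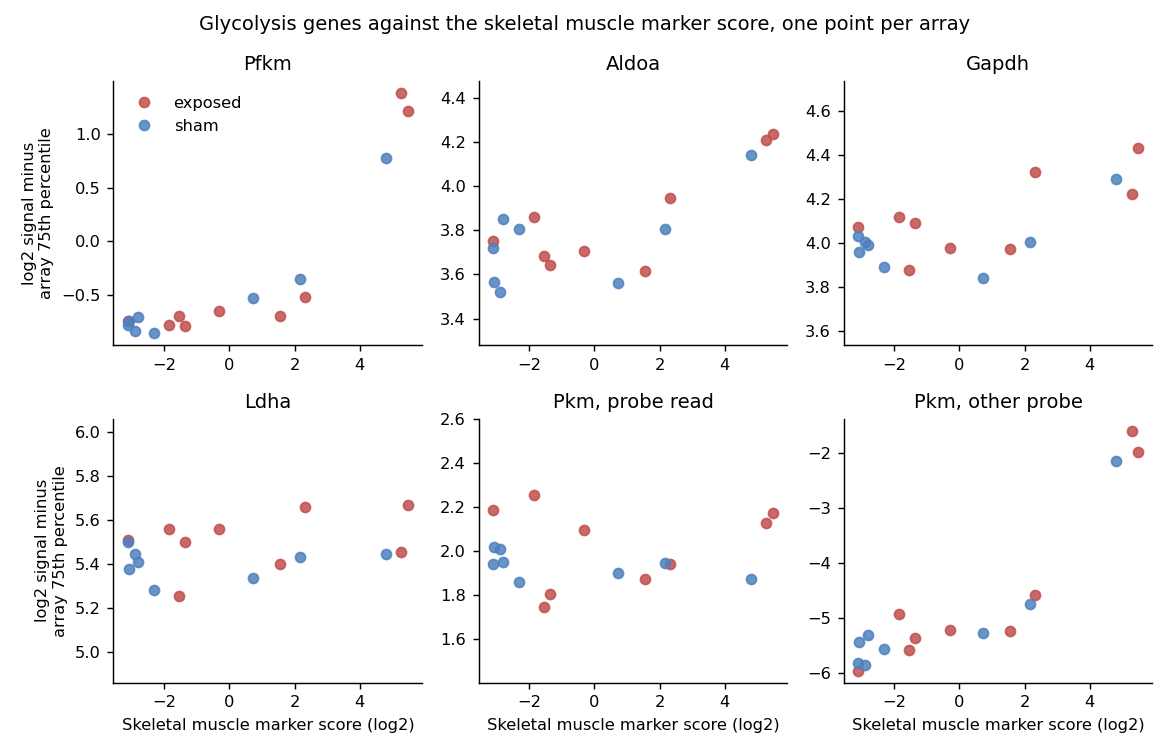
Signal (vertical axes, log2 signal minus the array's 75th percentile) against the skeletal muscle marker score (horizontal axis, log2) on each of 17 arrays, exposed in red and sham in blue. Pfkm and the second Pkm probe stand high on 3 arrays, Aldoa and Gapdh are shifted less, and Ldha and the Pkm probe used elsewhere show little relation; the vertical scales differ between panels.

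Pkm was read by 2 probes that did not go together (r = 0.265 between them over 17 arrays). The brighter one, used above, had a slope of 0.0004 on the muscle score. The other, A_64_P024077, assigned to the same RefSeq transcript, ranged from -5.96 to -1.59 with a median of -5.21 in exposed skin, and from -5.86 to -2.14 with a median of -5.37 in sham skin, and was well above background on 9 of 9 exposed and 7 of 8 sham arrays. Its 3 highest arrays were again exposed replicates 4 and 8 and sham replicate 3. Its slope was 0.41 (adjusted p = 0.000178 in limma), it stayed called with slide as a block (0.42; adjusted p = 0.0199), and without the 3 arrays it was 0.15 (adjusted p = 0.215). The Pkm gene makes 2 main messages by alternative splicing, one of them the muscle form. Which exon each probe reads is not given in the sources used here. This probe was singled out after its values were seen.

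Other genes of the pathways, 60 in a wider list of which 47 were measured, give context for these slopes. In the exposure fit 30 averaged higher, 17 lower and 0 were called, with a median of 0.029. Those with the smallest p included Ak4, a mitochondrial adenylate kinase (-0.20), Pfkfb1 (0.36) and Pfkfb3 (-0.24), the last 2 being enzymes that set the level of the phosphofructokinase activator (adjusted p = 0.983 for each in limma). On the muscle score 4 of the 47 were called, all with a positive slope, and 3 with slide as a block, where Pgm1 lost its call (adjusted p = 0.0544). Pgam2, the muscle phosphoglycerate mutase, rose by 1.08 per unit of score and Eno3, the muscle enolase, by 0.57, while Slc2a4, the insulin-responsive glucose carrier, rose by 0.15 and Pgm1, a phosphoglucomutase, by 0.13. Pgam2 and Eno3 were still called without the 3 arrays, with slopes of 1.12 and 0.36, and Slc2a4 and Pgm1 were not. Pgam2 was well above background on 9 of 9 exposed and 4 of 8 sham arrays, so its slope rests partly on values near the floor.

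Hair follicles, whose growing bulb is rich in dividing cells, gave the second axis of variation. No gene of the list was called on the hair follicle score (0 of 33), where 4.11% of all probes were called, 3.03% with a positive and 1.08% with a negative slope. Of the 33 slopes 24 were negative and 9 positive, with a median of -0.011, and 3 had an unadjusted p under 0.05, where 21.4% of all probes did. These were Ankrd37 (-0.067; adjusted p = 0.118 in limma), Bnip3 (-0.049; adjusted p = 0.132) and Ldhb (-0.043; adjusted p = 0.151). Hk2 came next, with a positive slope of 0.039 (adjusted p = 0.246). Without sham replicate 5, the array of lowest score, Slc2a1 was called with a slope of -0.095 (adjusted p = 0.0293), against -0.031 (adjusted p = 0.434) over all arrays.

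Of the wider list, 3 of 47 were called on the hair follicle score, among them Nfil3 and Vhl. Nfil3, a transcription factor, rose by 0.10 per unit (adjusted p = 0.0029 in limma), and Vhl, the ubiquitin ligase subunit that recognises hydroxylated HIF, fell by 0.040 on the log2 scale (adjusted p = 0.0301). The fourth by p was P4ha2 (-0.080; adjusted p = 0.0825). The call of Vhl was lost with slide as a block, at an adjusted p of 0.072, without a filter on dim probes, at 0.063, and without any one of sham replicates 1, 3 and 5 and exposed replicates 3 and 7, at 0.053 to 0.084.

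**Figure D4:**
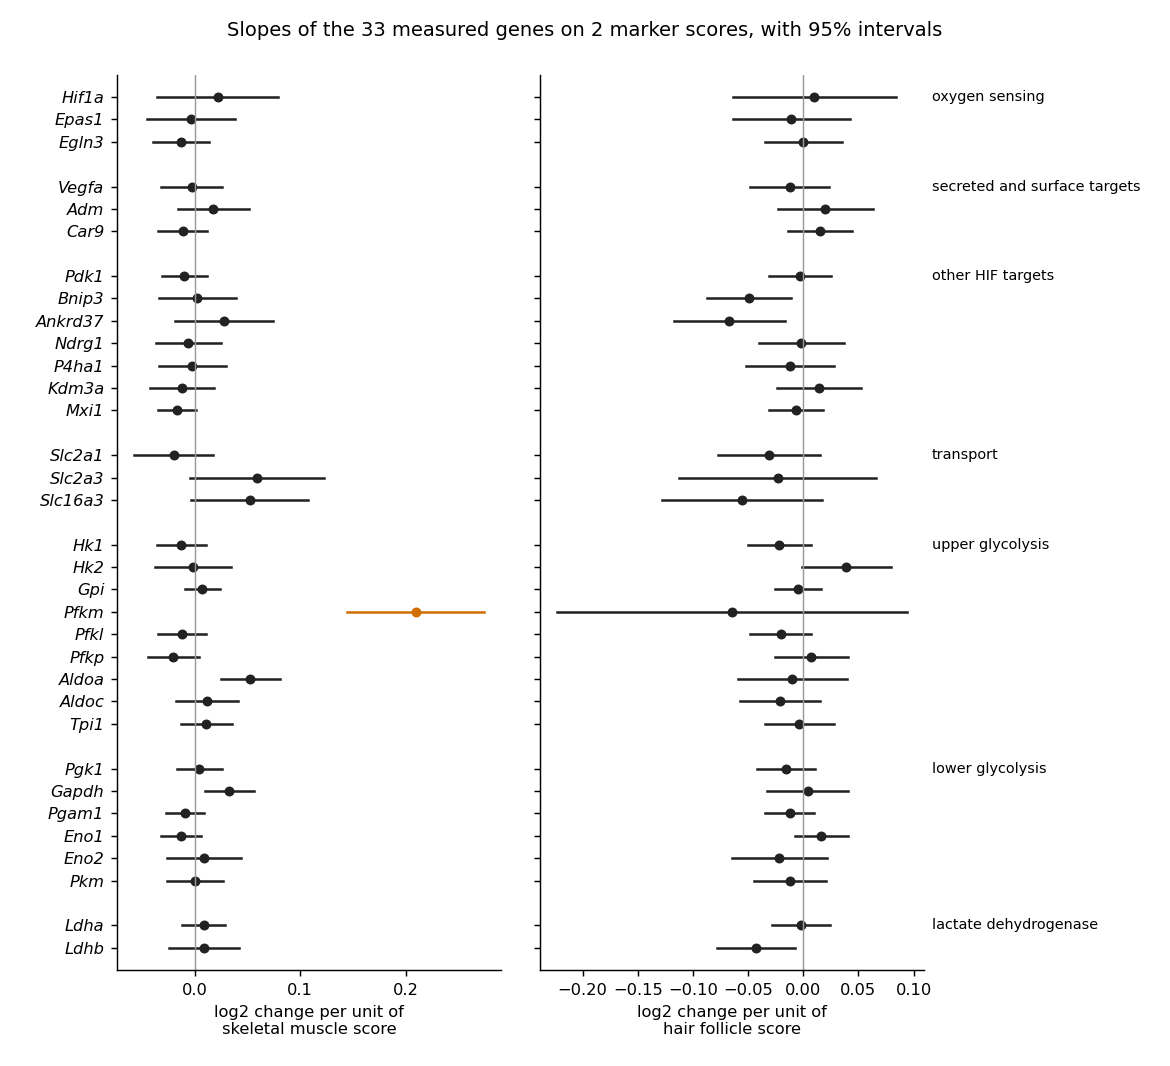
Slopes of the 33 measured genes (point, estimate; line, 95% interval; horizontal axes, log2 change per unit of score) on the skeletal muscle score, left, and the hair follicle score, right, from limma with group in the fit over 17 arrays. Orange marks an adjusted p under 0.05, which Pfkm alone reached, on the muscle score.

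Finally, 12 pairs of genes were compared over the 17 arrays after removal of the group means, to see which genes varied together. Ldha and Pgk1 did (r = 0.761, permutation p = 0.00029, adjusted 0.00174; rho = 0.689, permutation p = 0.00274, adjusted 0.0164), and r was 0.742 without exposed replicates 6 and 8 and 0.751 without the 3 arrays of highest muscle score. Tpi1 and Gapdh did too (r = 0.756, permutation p = 0.0006, adjusted 0.0024; rho = 0.775, permutation p = 0.00053, adjusted 0.00636), with r = 0.576 without exposed replicates 5 and 8. With quantile scaling r was 0.618 for Ldha and Pgk1 (permutation p = 0.00796) and 0.714 for Tpi1 and Gapdh (permutation p = 0.00123). Only 3 of all other named genes, Pgk1 itself counted among them, reached the correlation of Pgk1 with Ldha. Likewise 3, Gapdh itself counted among them, reached that of Gapdh with Tpi1. Within slides 1, 2 and 4, which hold 5, 6 and 4 arrays, r was 0.826, 0.797 and 0.070 for Ldha and Pgk1, and 0.750, 0.700 and 0.962 for Tpi1 and Gapdh. The group means were not removed for these slide values, so they include any group difference and are a different measure from the pooled r. Slides 1 and 4 hold too few arrays for a test.

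None of the 9 pairs that follow passed the adjusted threshold. Bnip3 and Pdk1 had r = 0.408 (permutation p = 0.104, adjusted 0.254) over 17 arrays, and 0.708 (permutation p = 0.00477) without the 3 arrays of highest muscle score. Egln3 and Ankrd37 had r = 0.330 (permutation p = 0.195, adjusted 0.390), Hif1a and Vegfa 0.230 (permutation p = 0.375, adjusted 0.563), and Adm and Vegfa -0.125 (permutation p = 0.632, adjusted 0.748). Ndrg1 and P4ha1 had r = 0.255, Hif1a and Epas1 -0.188, Slc2a1 and Hk2 0.105, Pgam1 and Eno1 0.406 and Ldha and Ldhb 0.064, with adjusted permutation p from 0.254 to 0.804. Aldoa and Pfkm passed the adjusted threshold over 17 arrays, but no pooled value is given because Pfkm forms separate sets of arrays. Over the 14 arrays left without the 3 of highest muscle score, chosen after the values were seen, r was 0.273 (permutation p = 0.354).

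**Figure D5:**
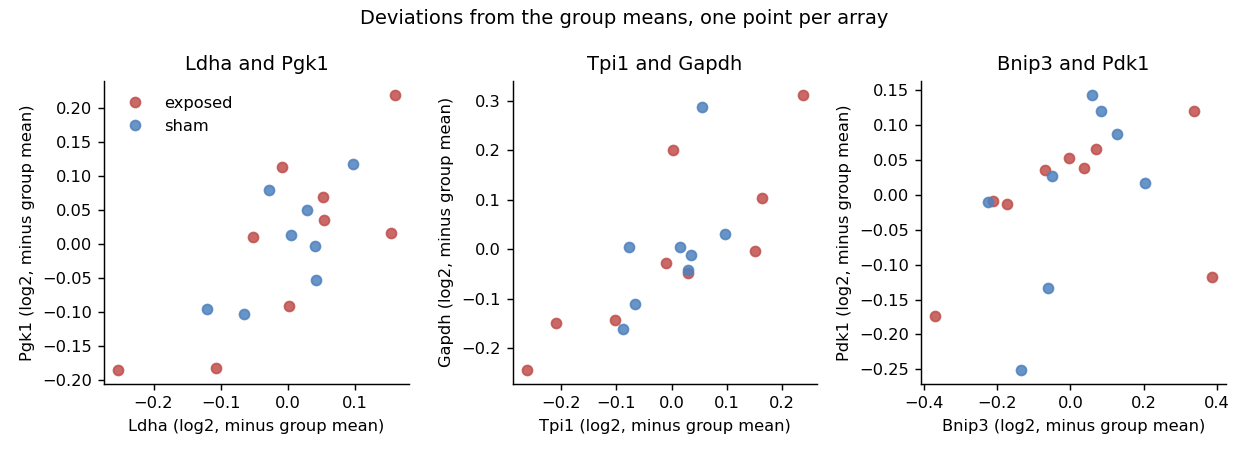
Deviation from the group mean on each of 17 arrays (both axes, log2 units; exposed in red, sham in blue) for Ldha and Pgk1, Tpi1 and Gapdh, and Bnip3 and Pdk1. The first 2 pairs rise together (r = 0.761 and 0.756), and Bnip3 and Pdk1 do so less closely (r = 0.408).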

How the data were processed

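Skin RNA of 17 explants was hybridised to 1-colour arrays. The deposited files of each array give linear fluorescence intensity after background subtraction by Agilent Feature Extraction 10.7.3.1 (protocol GE1_107_Sep09), per the file headers, with no step that links arrays. Spot quality flags are the software's, per the file headers. The deposited value table holds the authors' log2 values, centred per probe; its scaling step is not given in the sources used here, and it served as an alternative. Gene names came from matching sequence names to a RefSeq table of build GRCr8; a symbol was found for 17998 of 30367 probes. GRCr8 gave names and promoters only, since the array design used another build.

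Each log2 signal was set against its own array's 75th percentile, with the unflagged spots of a probe averaged. Probes well above background on at least 8 arrays were kept (20710, for 11167 genes), and a gene with several was read from the one of highest mean. Fits used limma 3.58.1 in R 4.3.3 with Benjamini-Hochberg adjustment and a threshold of 0.05, either on group or on group and a marker score. The fits were tested on simulated data. Permutation p-values used 100000 resamples, or all splits where called exact. The 34 genes, the wider list, the marker lists and the tests were chosen with earlier results of these data known. Named genes were all measured members and, of the wider list, the 4 with the smallest p in each fit, of which some are not reported here; values per array are given for genes called in a fit, the 6 with the smallest exposure p, and the regulators. Array replicates were numbered in accession order and slides were read from the sample titles (5, 6, 2 and 4 arrays), each scanned once, so slide and scan cannot be told apart. Alternatives were scaling by quantiles or the median, normexp with an offset of 50 as background correction (on the median signal, since the planned mean signal was not used here), filters on dim probes, slide as a block or alone, the marker scores in the exposure fit, the value table, other probes and leaving out each array.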

Additional observations from a re-analysis of the deposited data

Results flagged for a closer look

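In 80 sets of arrays (each gene or log ratio in each group) a single array was compared with the rest of its group by Dixon's gap, which chance exceeds in about 1 of 20, and 5 stood apart. Pfkm was at 0.78 in sham replicate 3, far above the other sham arrays, and the log2 ratio of Pfkm over Pfkl was 3.41 there. Gapdh was at 4.29 in the same array, the highest of the sham group. That array had a skeletal muscle score of 4.82, the highest of the sham group, and the part of muscle in these values was not tested. Slc16a3 was at 0.21 in sham replicate 6, above the other sham arrays. Gpi was at 3.18 in exposed replicate 8, above the other exposed arrays, and the Gpi difference was -0.023 without it.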

How the results depend on the processing

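No paired analysis was possible because the labels carry no replicate numbers. No member and no probe was called for exposure in any alternative run (other scalings, background, filters, slide as a block or alone, scores as covariates, the value table, each array left out). The value table gave no estimate for Hif1a, Slc2a3 and Car9, so that run did not test them. The signs of small estimates were not stable. Within slide 1, exposure differences turned to 0.077 (Epas1), -0.15 (Egln3), 0.029 (Pdk1), 0.20 (Ldhb), -0.011 (Ndrg1), 0.026 (Hk2), -0.054 (Gpi), -0.039 (Aldoc), -0.028 (Pgam1) and 0.015 (Eno2). Within slide 2 they turned to -0.011 (Egln3), 0.0026 (Vegfa), 0.17 (Slc2a1), 0.079 (Bnip3), -0.0064 (Pgk1), -0.00013 (Ndrg1), 0.016 (Mxi1), -0.12 (Pfkm), -0.044 (Aldoa), -0.069 (Aldoc), -0.089 (Tpi1) and -0.060 (Gapdh). Within slide 4 they turned to -0.30 (Slc2a3), -0.46 (Slc16a3), 0.0077 (Pdk1), 0.064 (Ldhb), -0.46 (Ankrd37), -0.031 (Pgk1), 0.22 (Kdm3a), -0.080 (Pfkm), -0.14 (Pfkl), -0.014 (Pgam1) and 0.051 (Pfkfb3). With slide as a block they turned to -0.0056 (Egln3), 0.010 (Slc2a1), 0.010 (Ldhb) and -0.029 (Aldoc). With both scores in the fit they turned to 0.068 (Slc2a1), 0.0056 (Pdk1), 0.010 (Ldhb), 0.017 (Bnip3), -0.00013 (Gpi) and -0.058 (Pfkm). Slc2a1 was 0.015 with median scaling, 0.0024 with quantile scaling and 0.0026 in the deposited value table, Pdk1 was 0.0018 with median scaling, and Pfkl was -0.0063 with normexp. Leaving out each array gave ranges that crossed 0 for Egln3 (-0.024 to 0.036), Slc2a1 (-0.060 to 0.039), Pdk1 (-0.051 to 0.0064), Ldhb (-0.078 to 0.038), Bnip3 (-0.080 to 0.014), Ankrd37 (-0.0063 to 0.13), Kdm3a (-0.066 to 0.0022), Hk2 (-0.072 to 0.011), Gpi (-0.023 to 0.020), Pfkl (-0.026 to 0.035), Aldoc (-0.046 to 0.034) and Pgam1 (-0.0039 to 0.035). Without crossing 0, some genes moved by over 1.5 times from their estimate over all arrays. These were Hif1a (0.044 to 0.21), Epas1 (-0.18 to -0.084), Vegfa (-0.11 to -0.045), Slc16a3 (0.057 to 0.23) and Pgk1 (0.029 to 0.080). Others were Ndrg1 (0.023 to 0.11), P4ha1 (-0.12 to -0.052), Mxi1 (-0.069 to -0.028), Pfkm (0.048 to 0.44) and Aldoa (0.056 to 0.16). Tpi1 (0.0071 to 0.070), Eno1 (0.032 to 0.073) and Pkm (0.056 to 0.12) did so too. Smaller moves from that estimate were seen for Adm (0.15 to 0.24), Ldha (0.084 to 0.14), Car9 (0.085 to 0.14) and Slc2a3 (0.21 to 0.40). Hk1 (0.077 to 0.13), Eno2 (-0.19 to -0.10), Pfkp (0.063 to 0.12) and Gapdh (0.081 to 0.16) also moved less.

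Leaving out each array, the Ldha over Ldhb ratio differed by 0.069 to 0.19 and the Eno1 over Eno2 ratio by 0.16 to 0.24, each with an unadjusted exact permutation p under 0.05 in 1 of these settings, and the Slc2a1 over Slc2a3 ratio by -0.41 to -0.20. With the second Aldoc probe the Aldoa over Aldoc difference was -0.0028. Pgam1 and Eno1 had r = 0.557 with quantile scaling and 0.561 with both scores removed, Egln3 and Ankrd37 0.505 with both scores removed, Bnip3 and Pdk1 0.573 without the 2 farthest arrays, Hif1a and Epas1 0.267 in that setting, and Ldha and Ldhb -0.407 with quantile scaling. Without the 3 arrays of highest muscle score, chosen after seeing the data, r was 0.273 for Aldoa and Pfkm, 0.708 for Bnip3 and Pdk1, 0.144 for Adm and Vegfa and -0.026 for Ldha and Ldhb.

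On the muscle score 187 probes were called, against 121 with probes above background on all arrays, 106 with slide as a block, 57 without the 3 arrays, and 0 and 46 within slides 1 and 2, where fewer arrays enter. The member called was 1, against 0 with slide as a block, without the 3 arrays and within slides 1 and 2, and 1 to 2 leaving out each array (Aldoa in addition, without exposed replicate 3 or sham replicate 7). Of the wider list 2 were called without the 3 arrays, and 0 and 1 within slides 1 and 2. Within slide 1 the slope was -0.037 for Aldoa, -0.046 for Gapdh and -0.030 for the second Pkm probe. On the hair follicle score 852 probes were called, against 371 with slide as a block and 543 to 926 leaving out each array, lowest without sham replicate 3. Members called were 0 to 1 leaving out each array, and of the wider list 3 were called, 1 without a filter and 1 to 5 leaving out each array. The causes were not tested.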

Other observations

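Of the wider list of 60 pathway genes, 8 were too dim to be kept, among them Hif3a, Arnt, Pdk4, Epo, Pgk2, Pklr and Ldhc. Epo, the hormone of red cell production, Pklr, the pyruvate kinase of liver, and Pgk2 and Ldhc, the testis forms, are genes whose main sites of expression lie outside skin. Arnt, the partner subunit of the HIF alpha proteins, was also too dim by its probe, which gives no statement on its level. A further 5, Lox, Kdm4c, Fam162a, Tmem45a and Ldhd, had no named probe.

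Both further probes of Gapdh followed the one used (r = 0.821 and 0.958 over 17 arrays), as did the second probe of Tpi1 (r = 0.968). The second probe of Aldoc (r = 0.105), of Pfkl (r = 0.128) and the other probes of Mxi1 (r = 0.298 and 0.080) did not follow theirs closely. Aldoc differed by 0.11 between exposed and sham skin on its second probe and by 0.0021 on the first, with an adjusted p of 0.983 or above for each in limma.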
